A study of Mus musculus with 45 samples.

Results

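Lgr5-positive and Lgr5-negative epithelial cells from the anterior part of the mouse small intestine were compared in embryos at E15.5 (days of embryonic development), in cells that carried no Axin2 lineage label. The comparison was chosen by sample title and held 6 of the 45 libraries of the series, 3 on each side of the Lgr5 gate. In the Lgr5-positive libraries the stem cell markers Lgr5, Smoc2, Slc12a2 and Vav3 stood above all 3 Lgr5-negative libraries, and enterocyte genes such as Cdhr5 and Maf stood below them. No single gene of 15513 tested passed the threshold, an adjusted p below 0.05 in edgeR's quasi-likelihood test with Benjamini-Hochberg adjustment. The same gate gave 68 higher and 67 lower genes in E13.5 gut of the same marker line. For 11 genes the Lgr5 difference itself differed between the anterior part at E15.5 and the E13.5 gut, led by Sfrp5, a secreted Wnt inhibitor, and Vav3.

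Lgr5 is a receptor for R-spondins, secreted proteins that strengthen Wnt signalling, and in the adult intestine it marks the dividing stem cells at the base of the crypts. Wnt signalling stabilizes beta-catenin, which acts with TCF/LEF factors on target genes, among them Lgr5, Axin2 and Ascl2. In the fetus the gut tube forms villi during the stages studied, with differentiating enterocytes on the villi and dividing progenitors between them.

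The gut was labelled wild type, on a mixed C57BL/6 CD1 background, and each E15.5 replicate came from 1 embryo, per the labels. The tdTomato lineage label was tied to Axin2 and started at E9.5, and the sources used here do not give the alleles that carry it. All cells compared here were tdTomato-negative, so that both groups consist of cells left after the labelled ones were set aside. One group was sorted as Lgr5-positive tdTomato-negative and the other as EpCAM-positive Lgr5-negative tdTomato-negative cells, 500 per library. The source label names EpCAM-positive cells for both groups, and how Lgr5 was detected in the sort is not given. For comparison, the series holds the gate in the posterior part of the E15.5 gut, in whole E13.5 small intestine of the Axin2 line, where each replicate pooled 3 embryos, and in E13.5 gut of an Id2 line. None of these shares a library with the anterior comparison. The labels do not say whether anterior and posterior libraries came from the same embryos.

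The 6 libraries held 16689712 to 19145288 reads assigned to genes and 14622 to 15449 genes with a read. Levels are in CPM, read counts scaled to a common library size. Epithelial identity was similar on both sides: 22 epithelial markers summed to 14394, 13274.5 and 14543 CPM in Lgr5-positive replicates 1, 2 and 3. In the Lgr5-negative ones they summed to 15223, 14496 and 15277 CPM. Both replicate 3 libraries came from male embryos by their Y-linked genes (216 and 219 CPM in sum) and the other 4 from females (at most 0.163 CPM). Both replicate 3 libraries also had the highest sums of dissociation and stress genes, 9529 CPM on the Lgr5-positive and 11199.8 CPM on the Lgr5-negative side against 4578 to 6118 CPM in the other 4. Lgr5-positive replicate 2 lay closest to the other side: across 9391 expressed genes its log2 levels correlated at 0.986 with Lgr5-negative replicate 2 and at 0.958 and 0.95 with the Lgr5-positive replicates. Replicate 3 had the same pattern, its Lgr5-positive library correlating at 0.966 with Lgr5-negative replicate 3. With Lgr5-positive replicates 1 and 2 that library correlated at 0.942 and 0.95. Genes are not independent replicates, and these values describe the libraries only.

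Of the 15513 genes tested, 0 (0%) passed the threshold in the anterior comparison, and the smallest adjusted p was 0.688, of Esr1. An unadjusted p below 0.05 was reached by 207 genes (1.33%), 121 higher (0.78%) and 86 lower (0.554%) in Lgr5-positive cells. The 3 Lgr5-positive libraries lay wholly above the 3 Lgr5-negative ones for 675 genes (4.35%) and wholly below for 812 genes (5.23%). Esr1, the estrogen receptor, stood at 1.96, 0.544 and 0.617 CPM in Lgr5-positive and 0, 0.0525 and 0.0553 CPM in Lgr5-negative libraries. The median log2 fold change of all genes was 0.004. DESeq2 called 42 genes, of which 37 had no read on one side and the other 5 (Lin7a, Gcg, Akap12, Esr1 and Vim) were higher, and limma voom called 1, Alpi. The median standard error was 0.44 on the log2 scale, against 0.44 at E13.5 and 0.45 in the posterior part. All comparisons share 1 fit with 1 estimate of the spread for each gene. The closeness of these values therefore does not show how even the anterior libraries were. Among the 9391 genes with a mean log2 CPM of at least 3, the 95% interval of the fold change lay within 1 log2 unit either way for 72.3%, against 44.9% over all tested genes with a standard error. For the 72.3% a change of more than 2-fold was outside the interval, whereas smaller changes were not resolved.

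The gate was checked on Lgr5 itself. Lgr5 stood at 69.4, 30.4 and 40.02 CPM in Lgr5-positive replicates 1, 2 and 3 and at 12.2, 4.41 and 8.96 CPM in the Lgr5-negative ones. Every Lgr5-positive library was above every Lgr5-negative one, the closest being Lgr5-positive replicate 2. The log2 fold change was 2.45 ± 0.78 (SE), with an interval of 0.87 to 4.03 and an unadjusted p of 0.00332. Axin2, the Wnt feedback gene to which the lineage label was tied, stood at 10.6, 6.14 and 6.17 CPM against 2.99, 1.68 and 3.98 CPM. Its libraries did not overlap either, at a log2 fold change of 1.40 ± 0.61. Id2, which binds helix-loop-helix transcription factors and keeps them from DNA, differed by 0.25 ± 0.21 and Epcam, the epithelial adhesion protein used in the sort, by -0.02 ± 0.18, both with overlapping libraries.

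Genes of the adult intestinal stem cell lay mostly on the Lgr5-positive side. Of 34 tested genes of the stem cell list, 31 had a positive log2 fold change, against 50.5% of all genes, and the median was 0.67. For 14 of them the 3 and 3 libraries did not overlap, all higher, which is 41.2% of the list beside 4.35% of all genes. With Lgr5 left out, which the sort had selected, 30 of 33 were positive, 13 did not overlap and the median was 0.65. No member passed the threshold, and 11 had an unadjusted p below 0.05. The list's summed level was 3023, 2139.8 and 2786 CPM in Lgr5-positive libraries and 1753, 1655 and 1745 CPM in Lgr5-negative ones, again with replicate 2 as the lowest of the positive side. In these bulk libraries, fewer cells of a type and less RNA per cell cannot be told apart.

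Smoc2, a secreted matrix protein of the stem cell signature, had 271, 120 and 254 CPM in Lgr5-positive cells against 99.0, 41.2 and 64.3 CPM in Lgr5-negative cells. The 3 higher libraries exceeded the highest of the other side, the gap being narrow for replicate 2. Its log2 fold change was 1.66 ± 0.57. Slc12a2, a sodium-potassium-chloride cotransporter, stood at 215, 104 and 159 CPM against 86.5, 73.4 and 86.0 CPM, a log2 fold change of 0.96 ± 0.34. Vav3, a member of the stem cell list, stood at 164, 123 and 194 CPM against 83.8, 70.0 and 83.7 CPM, a log2 fold change of 1.02 ± 0.38. Fstl1, a secreted glycoprotein, was low on both sides, at 5.14, 9.13 and 5.04 CPM against 2.12, 4.41 and 2.16 CPM. For Slc12a2, Vav3 and Fstl1 the libraries of the sides stayed apart, and their unadjusted p ran from 0.00667 to 0.0105.

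**Figure D1:**
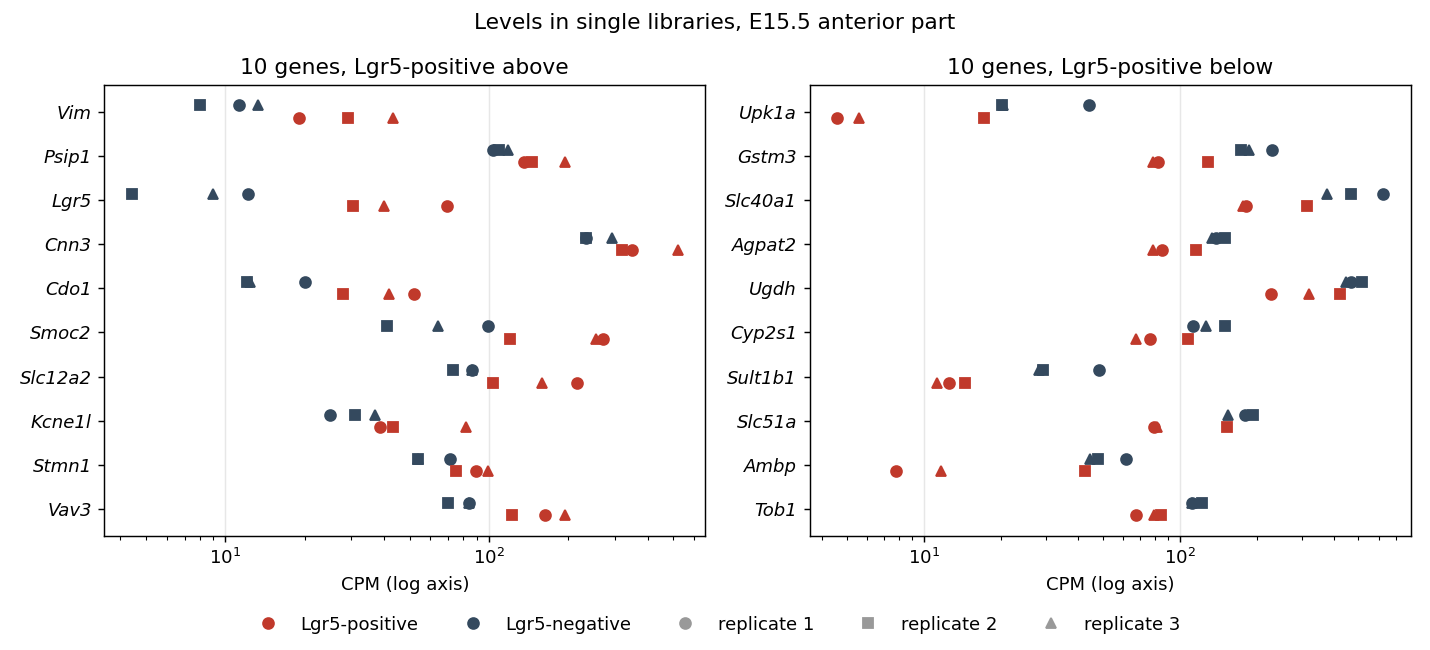
Levels of 20 genes in each of the 6 anterior libraries, in CPM on a log axis; red marks Lgr5-positive and dark marks Lgr5-negative libraries, and the marker shape gives the replicate. These are the genes with the smallest unadjusted p in each direction among those with mean log2 CPM of at least 3 and no overlap, so that the separation of colours was part of the choice; none passed the threshold.

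Wnt target genes, part of which are also in the stem cell list, lay mostly on the same side. Of 24 tested, 20 had a positive log2 fold change and the median was 0.68. Wholly higher were 7 (29.2% of the list beside 4.35% of all genes) and wholly lower 1 (4.17% beside 5.23%). Those wholly higher include Lgr5, which the sort had selected, and Axin2 and Ascl2, which are also in the stem cell list. With Lgr5 kept in, the list's sum was 931, 664 and 768 CPM in Lgr5-positive cells. It was 549.7, 486 and 534 CPM in Lgr5-negative cells. Ccnd1, the cyclin D1 gene, stood at 128, 93.9 and 84.6 CPM against 61.4, 67.2 and 38.4 CPM, a log2 fold change of 0.88 ± 0.33. Dkk3, of the Dickkopf family, was near the limit of detection, at 1.56, 1.196 and 0.56 CPM against 0.163, 0.105 and 0.332 CPM. Apcdd1, a membrane inhibitor of Wnt signalling, had reads in Lgr5-positive replicates 2 and 3 only, at 0.109 and 1.18 CPM.

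Secreted Wnt antagonists showed no common direction. Of 9 tested, 4 had a positive log2 fold change. The most abundant, Sfrp5, which binds Wnt proteins outside the cell, stood at 178, 154 and 208 CPM in Lgr5-positive cells and 368, 216 and 373 CPM in Lgr5-negative cells. Its libraries did not overlap, although Lgr5-negative replicate 2 came close, and the log2 fold change of -0.83 ± 0.66 had an interval that included 0. Sfrp2, of the same family, was low throughout, at 1.33, 1.79 and 0.448 CPM against 0.272, 0.472 and 0.0553 CPM. Wif1, the Wnt inhibitory factor, had at most 0.0544 CPM in Lgr5-positive and at most 0.367 CPM in Lgr5-negative libraries.

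Enterocyte genes lay mostly on the other side of the gate. Of 51 tested, 41 had a negative log2 fold change and the median was -0.46, with 11 wholly lower (21.6% of the list beside 5.23% of all genes) and 1 wholly higher. Summed, the list gave 5198, 6966 and 4424 CPM in Lgr5-positive and 7318, 8300.3 and 7168 CPM in Lgr5-negative libraries. The sums did not overlap, and Lgr5-positive replicate 2 was again nearest to the other side.

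Cdhr5, a cadherin of the brush border, stood at 105, 147 and 109 CPM against 171, 170 and 156 CPM, a log2 fold change of -0.46 ± 0.19. Maf, a transcription factor, had 3.06, 3.64 and 2.41 CPM against 8.48, 8.19 and 7.03 CPM, a log2 fold change of -1.38 ± 0.66. Mogat2, an enzyme of triglyceride synthesis from absorbed fat, had 104, 177 and 85.2 CPM against 199.7, 246 and 173 CPM, and its libraries overlapped through replicate 2. Alpi, intestinal alkaline phosphatase and named because limma voom called it, had 55.6, 127 and 39.5 CPM against 236, 205 and 208 CPM, a log2 fold change of -1.55 ± 0.84 in edgeR and -1.57 ± 0.27 with an adjusted p of 0.0197 in limma voom. Espn, an actin-bundling protein of microvilli, went against the list, at 65.8, 80.3 and 69.5 CPM against 39.1, 76.4 and 31.0 CPM. Of the proximal gut genes 14 of 21 were negative, with a median of -0.29 and 2 wholly lower (9.52% of the list beside 5.23% of all genes). Fabp1, Apoa1, Apoa4 and Rbp2 are members of both lists. Apoa1, the main protein of high-density lipoprotein, showed the spread within that list, at 126, 682 and 147 CPM against 672, 853 and 697 CPM.

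**Figure D2:**
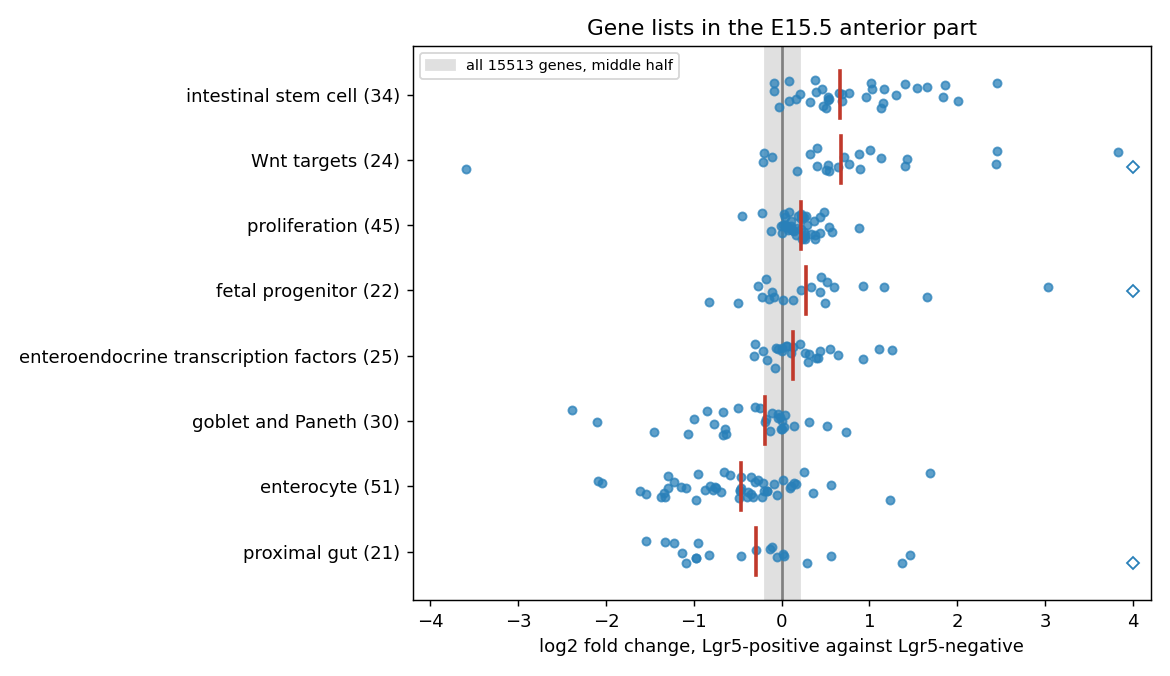
Log2 fold changes of Lgr5-positive against Lgr5-negative cells for the members of 8 gene lists, 1 point a gene, with the number tested in brackets; the red bar is the list's median, the grey band holds the middle 50% of all 15513 genes, and open diamonds at the edge are values beyond 4. Stem cell and Wnt target medians, of lists that both hold Lgr5, lie at 0.67 and 0.68, and the enterocyte median at -0.46.

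Among genes outside these lists, the smallest unadjusted p values on the higher side, apart from Esr1 and other genes of low level, included Vim, Psip1, Cnn3 and Cdo1. Vim, the intermediate filament vimentin, stood at 19.1, 29.3 and 43.4 CPM against 11.2, 8.03 and 13.3 CPM, a log2 fold change of 1.49 ± 0.40 with an unadjusted p of 0.000575. Psip1, a chromatin-bound coactivator, had 136, 146 and 195 CPM against 103, 109 and 118 CPM. Cnn3, an actin-binding calponin, had 348, 321 and 521 CPM against 234, 233 and 294 CPM. Cdo1, which oxidizes cysteine, had 52.1, 28.0 and 41.9 CPM against 20.0, 12.1 and 12.4 CPM. For Vim, Psip1, Cnn3 and Cdo1 the sides stayed apart by less than the spread within the Lgr5-positive group. Kcne1l, a subunit of potassium channels, differed by 0.81 ± 0.29 and Stmn1, which destabilizes microtubules, by 0.56 ± 0.20 on the log2 scale.

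Vim is also a marker of mesenchyme, the tissue under the epithelium. Of 15 tested mesenchyme markers in a list of 20, 14 had a positive log2 fold change, and the list's sum was 45.3, 36.4 and 60.9 CPM in Lgr5-positive libraries against 19.4, 15.4 and 20.5 CPM in Lgr5-negative ones. Vim was the largest single part of each sum and the only member wholly higher (6.67% of the list beside 4.35% of all genes). The other members overlapped between the sides. Col3a1, a fibrillar collagen, stood at 7.44, 0.489 and 2.52 CPM against 1.58, 0.525 and 0.996 CPM, and Fbn1, fibrillin, had reads in Lgr5-positive replicate 1 only. Markers of smooth muscle and interstitial cells had 10 of 11 positive and a median of 1.09, with sums of 90.8, 70.01 and 113 CPM against 59.3, 63.3 and 71.4 CPM, which overlapped. Those of enteric neurons and glia had 12 of 16 positive and a median of 0.47, with sums of 35.6 to 64.6 CPM against 34.6 to 59.4 CPM. Leukocyte markers had 4 of 14 positive and a median of -0.62, at 6.35 to 10.2 CPM in sum against 13.2 to 15.3 CPM. The part of such cells in the differences was not tested.

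On the lower side the expressed genes with the smallest unadjusted p were Upk1a, Gstm3 and Slc40a1. Upk1a, a tetraspanin of the uroplakin family, had 4.56, 17.2 and 5.55 CPM in Lgr5-positive cells against 44.3, 20.2 and 20.4 CPM, a log2 fold change of -1.63 ± 0.47. Gstm3, a glutathione transferase, had 82.2, 128 and 78.5 CPM against 230.4, 174 and 186 CPM, a log2 fold change of -1.03 ± 0.31. Slc40a1, the iron exporter ferroportin, had 182, 316 and 176 CPM against 625, 469.6 and 376 CPM, a log2 fold change of -1.13 ± 0.36. In all 3 genes Lgr5-positive replicate 2 was the highest of its side and nearest to the Lgr5-negative libraries. Ambp, a secreted plasma protein, showed the same spread, at 7.79, 42.7 and 11.7 CPM against 61.4, 48.0 and 44.5 CPM. Sult1b1, a sulfotransferase, was more even, at 12.5, 14.5 and 11.3 CPM against 48.1, 29.1 and 28.1 CPM. The remaining members of this set, Agpat2 and Ugdh of lipid and sugar metabolism, the cytochrome Cyp2s1, the bile acid exporter subunit Slc51a and the antiproliferative Tob1, differed by -0.75 to -0.56 on the log2 scale.

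Proliferation genes differed little in size. Of 45 tested, 41 had a positive log2 fold change, but the median was 0.22, and 4 stood wholly higher (8.89% beside 4.35% of all genes). Their sums overlapped, at 11787, 11387 and 9969.9 CPM in Lgr5-positive and 10920.1, 10050.4 and 9103 CPM in Lgr5-negative libraries. Gins2, a DNA replication factor, stood at 112, 104 and 112 CPM against 97.2, 83.5 and 89.6 CPM. Top2a, topoisomerase 2-alpha, overlapped, at 427, 359 and 183 CPM against 312, 210.3 and 129 CPM.

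Fetal progenitor genes had a median of 0.28, with 14 of 22 positive and 3 wholly higher (13.6% of the list beside 4.35% of all genes). Hmga2, a chromatin protein of fetal tissues, stood at 90.8, 50.1 and 64.4 CPM against 48.1, 46.3 and 49.2 CPM. The X-linked genes Bex2 and Bex1 differed by 0.60 ± 0.25 and 0.45 ± 0.19 on the log2 scale, with overlapping libraries. Spp1, osteopontin, rested on 1 library: it stood at 4.16, 68.3 and 1.12 CPM against 2.34, 0.525 and 1.16 CPM.

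The lists of secretory cells differed in direction. The goblet and Paneth list lay mostly on the Lgr5-negative side, with 7 of 30 positive, a median of -0.19 and no member without overlap. Transcription factors of enteroendocrine cells, the hormone cells of the gut, had 17 of 25 positive and a median of 0.13, and their hormones and granule proteins had 26 of 39 positive and a median of 0.07. Gcg, the glucagon gene, stood at 31.6, 0.109 and 106 CPM in Lgr5-positive cells and at no more than 0.0553 CPM, 1 read a library, in Lgr5-negative cells. Tph1, which makes serotonin, stood at 2.31, 2.17 and 23.5 CPM against 0, 0 and 0.221 CPM. Tac1, the substance P precursor, overlapped, at 40.5, 11.03 and 95.1 CPM against 10.3, 0.577 and 12.4 CPM. Sst, the somatostatin gene, lay on the other side, at 0.115, 0 and 0 CPM against 3.59, 0.84 and 0 CPM, and Ghrl and Cck, of ghrelin and cholecystokinin, had log2 fold changes of -0.87 and -0.50. Lgr5-positive replicate 3 was highest for Gcg, Tph1 and Tac1, and libraries of 500 cells can hold few hormone cells.

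Genes of position along the gut were compared because the anterior part was cut from a longer tube. Distal gut genes had 11 of 18 positive, with 1 wholly higher and 1 wholly lower (5.56% of the list each, beside 4.35% and 5.23% of all genes, near the background). Hoxa10, a posterior Hox gene, had 0.75, 1.30 and 1.96 CPM in Lgr5-positive libraries and 0 reads in the Lgr5-negative ones. Lin7a, a scaffold protein of cell polarity, had 0.0577, 0.815 and 6.61 CPM against 0.272, 0.157 and 0.111 CPM, so that its value rested on Lgr5-positive replicate 3. It was the only gene called when a library was left out, at 4.325 on the log2 scale and an adjusted p of 0.0461 without Lgr5-positive replicate 1. The 25 tested Hox genes summed to 31.3, 17.4 and 35.1 CPM against 17.4, 18.5 and 17.6 CPM, with Lgr5-positive replicate 2 at the level of the other side.

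Liver and pancreas genes varied between libraries more than between the sides. Their sum was 397, 1834 and 511 CPM in Lgr5-positive and 1112, 1787 and 539 CPM in Lgr5-negative libraries. Replicate 2 was the highest on each side, and this sum moved with Lgr5-positive replicate 2 in the genes above where that library lay near the Lgr5-negative ones, its part in them not being tested. With Lgr5-positive replicate 2 left out no gene was called, and with both male libraries left out none was called.

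**Figure D3:**
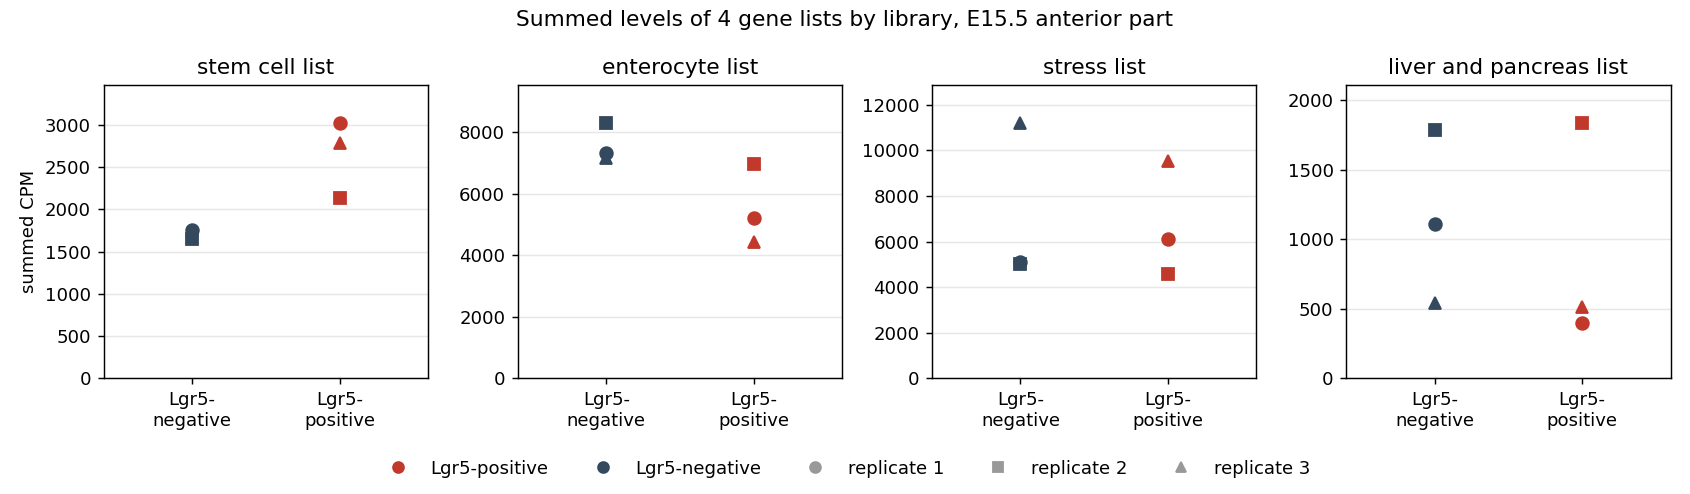
Summed CPM of 4 gene lists in each anterior library; dark marks Lgr5-negative and red marks Lgr5-positive libraries, and the marker shape gives the replicate. The stem cell and enterocyte sums of the sides do not overlap, while the stress sums are highest in both replicate 3 libraries and the liver and pancreas sums in both replicate 2 libraries.

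The E13.5 gut of the Axin2 line was set beside the anterior part to ask how the Lgr5 difference compares between the stages. At E13.5 the gate called 68 genes higher (0.438%) and 67 lower (0.432%), together 0.87% of those tested. Of the 68 higher, 51 had a positive log2 fold change in the anterior part and 18 stood wholly higher (26.5% beside 4.35% of all genes). Their median was 1.95 at E13.5 and 0.38 in the anterior part. Of the 67 lower, 57 were negative in the anterior part and 16 stood wholly lower (23.9% beside 5.23%), with medians of -2.49 and -0.30. The directions were mostly shared and the anterior differences were smaller. Because the genes were chosen by their E13.5 values, the sizes are not a like comparison. Of the 10 anterior genes on the higher side in the plot of single libraries, 7 were called higher at E13.5, and of the 10 on the lower side, 2 were called lower.

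**Figure D4:**
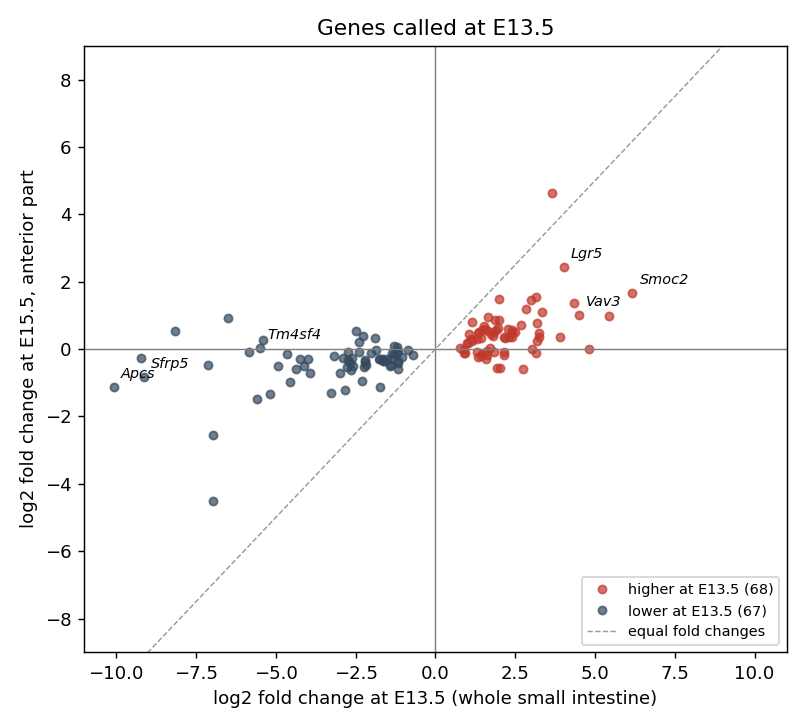
Log2 fold changes of Lgr5-positive against Lgr5-negative cells for the 68 and 67 genes called at E13.5, with E13.5 on the x axis and the anterior part at E15.5 on the y axis; the dashed line marks equal fold changes. Most of the 68 genes higher at E13.5 (red) lie above 0 and below the dashed line, and most of the 67 lower genes (dark) lie below 0 and above it.

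The difference of the fold changes, anterior minus E13.5, was called for 11 genes (0.0709%), 4 higher (0.0258%) and 7 lower (0.0451%). All 11 had been called at E13.5, and in all 11 the anterior fold change was the smaller in size. No gene was called in the anterior part, so that a called difference mostly needed a large fold change at E13.5. Both of these counts therefore follow largely from the selection. The E13.5 gut was not split into parts, so that stage and gut part cannot be told apart. The E13.5 libraries had at most 0.458 CPM of Y-linked genes in sum, whereas replicate 3 was male on each anterior side. Each E13.5 replicate also pooled 3 embryos, against 1 at E15.5. The part of sex and pooling in the 11 calls was not tested. The promoters of the 2 genes with the smallest adjusted p, Sfrp5 and Vav3, are given as the 250 bases before the transcript start, from RefSeq on build GRCm38.p6, at chr19:42202253-42202502 on the minus strand for Sfrp5 and, for the first of 3 listed starts of Vav3, at chr3:109340433-109340682 on the plus strand. Capitals mark GATAA, the core letters of GATA factor sites, searched on both strands.
Sfrp5: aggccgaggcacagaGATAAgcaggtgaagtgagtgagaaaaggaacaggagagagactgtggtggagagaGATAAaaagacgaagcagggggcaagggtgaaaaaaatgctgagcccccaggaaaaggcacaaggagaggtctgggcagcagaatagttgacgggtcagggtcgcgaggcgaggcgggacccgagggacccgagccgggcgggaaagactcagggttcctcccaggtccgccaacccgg
Vav3: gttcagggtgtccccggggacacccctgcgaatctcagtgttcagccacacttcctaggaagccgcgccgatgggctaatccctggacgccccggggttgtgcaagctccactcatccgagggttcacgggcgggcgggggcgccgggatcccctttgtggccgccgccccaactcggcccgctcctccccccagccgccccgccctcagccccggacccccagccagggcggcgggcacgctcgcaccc
The Sfrp5 window held GATAA 2 times and the Vav3 windows 0 times, and 22.6% of the 32851 promoter windows of the table hold it. CTTTGAT, a TCF/LEF motif held by 3.205% of windows on either strand, was in neither. These letters describe the windows, and binding was not measured.

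Sfrp5 had the smallest adjusted p of the 11. At E13.5 it stood at 0.458, 1.12 and 0.98 CPM in Lgr5-positive cells against 651, 253 and 540.4 CPM in Lgr5-negative cells. In the anterior part it was at 154 to 208 CPM in Lgr5-positive cells, above every E13.5 Lgr5-positive library, and it was at most 1.204 CPM in any unlabelled posterior library of either side. The difference of log2 fold changes was 8.30 ± 1.10, adjusted p = 0.000145. Tm4sf4, a tetraspanin-like membrane protein, followed the same course: Lgr5-positive cells held 6.01, 2.94 and 8.57 CPM at E13.5 and 206, 215 and 403 CPM in the anterior part, while Lgr5-negative cells held 152 to 330.1 CPM and 173 to 335 CPM. Its difference was 5.52 ± 1.09, adjusted p = 0.0349. Apcs, the plasma pentraxin serum amyloid P, had 0 reads in Lgr5-positive cells at E13.5 against 4.19, 4.67 and 9.87 CPM, and 0.404, 1.41 and 0.785 CPM against 2.12, 1.63 and 1.99 CPM in the anterior part. Arl14, a small GTPase, completed the 4, at 2.22 ± 0.46.

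For Vav3 and Smoc2 the E13.5 gut of the Axin2 line and the anterior part stood apart on the Lgr5-negative side, a contrast not tested here. Vav3 stood at 182, 185 and 221 CPM in Lgr5-positive cells at E13.5, near its anterior levels, but at 10.05, 7.7 and 8.36 CPM in Lgr5-negative cells, below all 3 anterior Lgr5-negative libraries. The difference was -3.47 ± 0.55, adjusted p = 0.00176. Smoc2 stood at 156, 249 and 219 CPM against 1.55, 2.79 and 4.36 CPM at E13.5, so that its Lgr5-negative libraries too lay below all anterior ones, with a difference of -4.51 ± 0.85 and adjusted p = 0.0185. Pdlim2, a cytoskeletal PDZ-LIM protein, stood at 23.6, 31.8 and 24.1 CPM against 0.621, 0.385 and 0.813 CPM at E13.5. In the anterior part it stood at 21.3, 15.0 and 9.53 CPM against 9.94, 7.08 and 6.31 CPM. Its anterior libraries thus lay above those of E13.5 on the Lgr5-negative side and below them on the Lgr5-positive side. The difference was -4.47 ± 0.86. The log2 fold changes of Vav3, Smoc2 and Pdlim2 at E13.5 were 4.49, 6.17 and 5.44 in the Axin2 line. In the Id2 line of the same stage they were smaller, at 1.93, 2.08 and 2.00, and whether the lines differ was not tested.

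Gramd3 and Mylk3 were instead lower in the anterior Lgr5-positive cells than in those of E13.5. Gramd3, a GRAM domain protein, had 405, 344 and 420.0 CPM against 124, 119.6 and 138 CPM at E13.5, and 118, 174 and 134.5 CPM against 167, 164 and 145 CPM in the anterior part, where the sides overlapped. The difference was -1.77 ± 0.29, adjusted p = 0.00253. Mylk3, a myosin light chain kinase, had 49.8, 42.4 and 49.0 CPM against 13.6, 14.9 and 8.54 CPM at E13.5 and 9.18, 11.1 and 9.25 CPM against 19.1, 13.4 and 11.3 CPM in the anterior part, a difference of -2.50 ± 0.43. Here the order of the sides was turned, although the anterior fold change missed the threshold. Mep1a, a brush border protease, and Krt7, a keratin, were called at E13.5 and had anterior fold changes near 0, with differences of -3.03 ± 0.61 and -1.37 ± 0.28. The calls of Sfrp5, Vav3 and Gramd3 held under all 19 alternatives. Mylk3 lost its call without anterior Lgr5-negative replicate 1 (adjusted p = 0.0536), and the calls of the other 7 genes were lost in 5 to 12 alternatives.

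**Figure D5:**
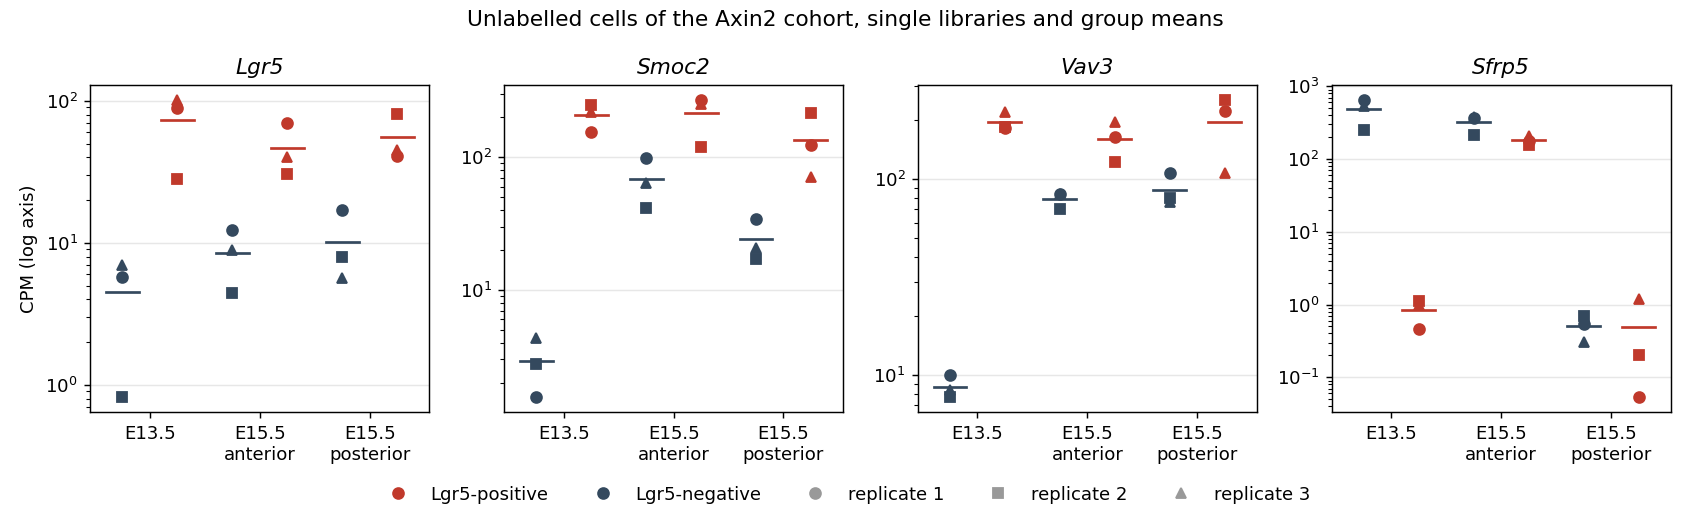
CPM on a log axis of Lgr5, Smoc2, Vav3 and Sfrp5 in unlabelled cells of the Axin2 line, from E13.5 gut and from both gut parts at E15.5; points are libraries, with the marker shape as replicate, and bars are means of 3. Vav3 and Smoc2 sit higher in the Lgr5-negative cells of E15.5 than of E13.5, and Sfrp5 is high on both sides in the anterior part and near 0 on both in the posterior part.

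In the posterior part at E15.5 the gate called 61 genes (0.393%), 51 higher (0.329%) and 10 lower (0.0645%), and the median of all genes there was 0.12 on the log2 scale. Of the 51, 43 were positive in the anterior part, with a median of 0.54 and 13 wholly higher (25.5% beside 4.35% of all genes). All 10 lower genes were negative in the anterior part, with a median of -0.47 and 5 wholly lower (50% beside 5.23%). Erythroid markers in the posterior part summed to 1816, 6.55 and 1587 CPM in Lgr5-positive and to 2.52 to 6.67 CPM in Lgr5-negative libraries, and 3 of the 9 tested were among the 51. By Y-linked genes, 1 of the 3 Lgr5-positive and 2 of the 3 Lgr5-negative posterior libraries were male. The part of either in the posterior calls was not tested. Smoc2 was called in the posterior part, at 2.50 ± 0.59 (adjusted p = 0.0478), and so were Gstm3, at -1.31 ± 0.32, and Ugdh, at -0.80 ± 0.19. Lgr5 itself differed by 2.45 ± 0.78 in the posterior part, as much as in the anterior part, and missed the threshold there too.

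Calls in one gut part and not the other do not show that the parts differ, and the difference itself was called for 1 gene (0.00645%). Rtn1, a reticulon of the endoplasmic reticulum, had 4.98, 4.87 and 4.19 CPM in posterior Lgr5-positive cells and 0 reads in the 3 posterior Lgr5-negative libraries. In the anterior part it had 1.21, 1.58 and 2.13 CPM against 0.272, 1.21 and 1.44 CPM, and the sides overlapped. The adjusted p of the difference was 0.0191. It was lost in 10 of 20 alternatives, among them the fit on E15.5 libraries only (adjusted p = 0.155).

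In E13.5 gut of the Id2 line, where the gate called 74 genes (0.477%), 12 of the 23 higher genes (0.148%) were positive in the anterior part and 37 of the 51 lower genes (0.329%) were negative. Vav3 was among the higher, at 1.93 ± 0.39, and Sfrp5 and Ambp among the lower, at -4.65 ± 0.76 and -2.82 ± 0.53. Lgr5 itself differed by 1.28 ± 0.74 there and missed the threshold, against 4.02 ± 0.84 at E13.5 in the Axin2 line, where it was called.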

How the data were processed

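For each library the authors deposited a table of read counts, whole numbers, 1 line a gene. Per the labels' protocols, polyadenylated RNA of 500 sorted cells was made into cDNA with SMARTer v3 chemistry, amplified for 15 cycles and prepared with the Ovation Ultralow system. Per the submitters' processing notes, bcl2fastq 1.8.4, STAR 2.3.1z13, SAMtools 1.2, HTSeq 0.6.1p1 and DESeq2 1.14.1 were used with mouse build mm9. The sources used here give neither the annotation nor the strand setting, so overlapping and antisense genes cannot be separated, and levels of close paralogs are uncertain. The reads carry no molecular identifiers.

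The 5 closing lines of each deposited count table, which name no gene, held 23.9 to 28.9% of reads in the 6 libraries and were left out. All 45 libraries entered 1 fit of 15 group means with edgeR 4.0.16 in R 4.3.3 (quasi-likelihood test, robust, TMM, 30 residual degrees of freedom). The filter on low counts was filterByExpr with a minimum count of 10 and a total of at least 15, which left 15513 of 23366 genes. A gene was called at a Benjamini-Hochberg adjusted p under 0.05. All unadjusted p and fold changes are from this fit. Log2 CPM used a prior count of 2, and CPM used TMM-scaled totals. Replicates of a group differed by 23.9 to 53.5 chi-square per degree of freedom, so that none was a copy. With 3 against 3 libraries an exact permutation test cannot go below 0.1, and none was used.

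The rule for named genes took the gate and label genes (Lgr5, Epcam, Axin2 and Id2); the 10 genes in each direction with the smallest unadjusted p among those with non-overlapping sides, a proper symbol and a mean log2 CPM of 3 or more, since none was called; up to 4 members of smallest p of each list; genes called in a difference between comparisons; and the strongest E13.5 genes. Other names were chosen after their values were seen. The members and lists were chosen with earlier results of these data known. The alternatives tried were RLE size factors, no filter, limma 3.58.1 (voom with quality weights), DESeq2 1.42.0, fewer libraries in the fit, a replicate block and leaving out each library. The series design text calls the replicates biological.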

Additional observations from a re-analysis of the deposited data

Results flagged for a closer look

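The Lgr5 difference itself was tested between the anterior part and another setting, with edgeR's quasi-likelihood test of a difference of differences, and 12 genes passed. Between anterior and posterior parts the gene was Rtn1, whose difference of log2 fold changes was -8.91. It is fitted against posterior Lgr5-negative libraries with 0 reads, so that its size depends on the fit. The call was lost without any 1 of anterior Lgr5-positive replicates 1 and 2, anterior Lgr5-negative replicates 2 and 3 and the 3 posterior Lgr5-negative libraries, at adjusted p of 0.0555 to 0.159.

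Between the anterior part at E15.5 and the E13.5 gut, the differences were 8.30 for Sfrp5, 5.52 for Tm4sf4, 8.94 for Apcs and 2.22 for Arl14 on the positive side. On the negative side they were -3.47 for Vav3, -1.77 for Gramd3, -2.50 for Mylk3, -4.51 for Smoc2, -4.47 for Pdlim2, -3.03 for Mep1a and -1.37 for Krt7. The value for Apcs is fitted against E13.5 Lgr5-positive libraries with 0 reads. Smoc2 lost its call without anterior Lgr5-positive replicate 2, anterior Lgr5-negative replicate 1 or E13.5 Lgr5-negative replicates 1 or 2 (adjusted p 0.0591 to 0.0962). Pdlim2 lost its call without anterior Lgr5-positive replicates 2 or 3, anterior Lgr5-negative replicate 1 or the same E13.5 libraries (0.0566 to 0.0892). The other 5 kept their calls in few of the 12 fits with a library left out. Tm4sf4 kept it without anterior Lgr5-positive replicates 1 or 2 or E13.5 Lgr5-negative replicate 2, and had an adjusted p of 0.0671 to 0.126 in the rest. Apcs kept it without anterior Lgr5-positive replicate 1 or E13.5 Lgr5-negative replicate 2 (0.0782 to 0.13 in the rest), and Arl14 without anterior Lgr5-positive replicate 2 or E13.5 Lgr5-negative replicate 2 (0.0627 to 0.181). Mep1a kept it without anterior Lgr5-negative replicate 3 or E13.5 Lgr5-positive replicate 2 (0.0507 to 0.168), and Krt7 without anterior Lgr5-positive replicate 3 (0.0777 to 0.198).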

How the results depend on the processing

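The anterior count of 0 called genes was also 0 with RLE size factors, without the filter, in the 3 fits with fewer libraries and with both male libraries left out, an alternative chosen after the data were seen. It was 42 with DESeq2 (30 higher, 12 lower), 1 with limma voom and 0 to 1 when a library was left out. Calls for the anterior minus posterior difference numbered 1, but 0 with E15.5 libraries only, 63 with DESeq2, 45 with limma voom and 0 to 3 when a library was left out. Calls for anterior minus E13.5 numbered 11, but 6 without the filter, 93 with only the 12 libraries compared, 37 with the Axin2 line only, 82 with DESeq2, 370 with limma voom and 3 to 9 when a library was left out, lowest without anterior Lgr5-negative replicate 1. The cause was not tested.

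Same-numbered anterior libraries deviated from their group means with correlations of -0.014, 0.582 and 0.433 over 9391 genes. The value was -0.530 between Lgr5-positive replicate 3 and Lgr5-negative replicate 2, and -0.489 between Lgr5-positive replicate 2 and Lgr5-negative replicate 3. The labels do not say what the numbers mark, so that the fit held no replicate block. Whether same-numbered libraries came from 1 embryo is not settled. Lgr5-positive replicates 2 and 3 correlated best with their own number and replicate 1 did not. With the replicate block the anterior count stayed at 0, the anterior minus posterior count was 0 and the anterior minus E13.5 count was 33.

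Signs of fold changes turned when a library was left out. Angpt1, at 1.38 with all libraries and with few reads, ran from -2.15 to 3.56. Among smaller values, Epcam ran from -0.066 to 0.022, Cdx1 from -0.071 to 0.53, BC064078 from -0.83 to 0.050, Lmcd1 from -0.20 to 0.014, Tm4sf4 from -0.36 to 0.21, Mep1a from -0.19 to 0.12 and Krt7 from -0.27 to 0.011. In female libraries only, Angpt1 was at -2.66, Tm4sf4 at -0.18 and Mep1a at -0.031, and with the block Tm4sf4 was at -0.014. Precision is limited by 3 libraries a side, each from 500 cells of 1 embryo. Genes with few or no reads on at least 1 side, such as Gcg, Hoxa10 and Apcs, cannot be sized by a fold, and single hormone genes varied with 1 library.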

Other observations

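Axin2-labelled cells of the anterior part, whose Lgr5 state the labels do not give, are outside the comparison above. Their 3 libraries held Lgr5 at 23.1, 82.0 and 14.0 CPM and Smoc2, the matrix protein of the stem cell signature, at 107, 271 and 113 CPM, so that replicate 2 was the highest in both. Vav3 stood at 119.7, 166 and 87.4 CPM and Sfrp5, the Wnt inhibitor, at 161, 186 and 174 CPM. Vim was at 18.1, 23.3 and 46.8 CPM and Upk1a at 19.4, 10.8 and 7.32 CPM. Their stem cell sums were 2068, 2887 and 2179 CPM. Replicate 3 was male here too, with 193 CPM of Y-linked genes, and it had the highest stress sum, 9886 CPM.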
